A study of Mus musculus with 4 samples.

Results

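The cells described were chosen by transcript counts as type 17 γδ T cells, that is, γδ T cells of the kind that makes IL-17. They came from a single-cell RNA data set of T cells from the tumor-draining lymph nodes (TdLN) of mice with melanoma. A kept cell barcode was a member if Trdv4, Tcrg-V6 and Cd163l1 together had at least 3 unique molecular identifiers (UMIs, counted RNA molecules) and if H2-Aa and Cd79a, transcripts of antigen-presenting cells and B cells, had none. There were 505 members among 43971 kept barcodes (1.15%), with 92 of 11131 barcodes in RT + αPD-L1, 145 of 12285 in αPD-L1, 162 of 10157 in RT and 106 of 10398 in Control. Of the members, 86 passed on Cd163l1 alone and mostly lacked Il17a, Il23r and Blk, so the name does not describe them well.

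The mice were female C57BL/6 mice, bought at an age of 6 weeks, with B16F10GP tumors in both flanks. B16F10GP is a B16F10 melanoma line carrying a viral glycoprotein. Only the right tumor was irradiated. The groups were RT + αPD-L1 (radiotherapy plus an antibody that blocks PD-L1) and αPD-L1 or RT alone, each collected 7 days after treatment, and Control, which was untreated. Freshly collected CD8+ PD-1+ CD44+ cells were sorted, the 5 mice of a treatment were marked with hashtag antibodies, and each treatment was run as 1 droplet library, so that treatment and library cannot be told apart. The mouse was the replicate (n = 5 per group), and the mice were numbered 1 to 5 by hashtag within each library.

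γδ T cells carry an antigen receptor made of a γ and a δ chain in place of the α and β chains of conventional CD8+ T cells, and most of them lack CD8. Mouse type 17 γδ T cells with the Vγ6 and Vδ1 chains arise in the fetal thymus, settle in skin and other barrier tissues and make IL-17A when IL-1β and IL-23 reach them. Cells of this kind travel between skin and its draining lymph nodes. In the files, Tcrg-V6 is the Vγ6 segment, Trdv4 the Vδ1 segment, and Cd163l1 encodes the scavenger receptor SCART1, a surface protein of type 17 γδ T cells.

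The V segments of the rule are shown because the counts of Tcrg-V6 and Trdv4 chose most of the members. Tcrg-V5 is shown beside them because, paired with Trdv4, it marks the γδ T cells of the epidermis. Each line is the 3′ end of the segment, read from the GENCODE transcripts on GRCm38, and the capitals mark the conserved cysteine codon near the junction with the J segment. Tcrg-V6 lies at chr13:19190810-19190929, Trdv4 at chr14:54075396-54075515 and Tcrg-V5 at chr13:19192606-19192725, all on the plus strand.
Tcrg-V6: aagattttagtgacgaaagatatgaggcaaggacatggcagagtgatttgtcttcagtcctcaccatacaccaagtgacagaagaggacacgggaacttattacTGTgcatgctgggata
Trdv4: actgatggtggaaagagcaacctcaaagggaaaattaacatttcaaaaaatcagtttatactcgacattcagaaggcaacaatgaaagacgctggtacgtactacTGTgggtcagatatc
Tcrg-V5: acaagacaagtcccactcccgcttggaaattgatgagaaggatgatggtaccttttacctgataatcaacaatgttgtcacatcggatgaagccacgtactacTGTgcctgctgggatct
Across the aligned transcripts, Tcrg-V6 and Tcrg-V5 were identical at 194 of 381 positions (50.9%), and Tcrg-V6 and Trdv4 at 224 of 462 (48.5%).

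The promoters of Il17a, Il17f and Il23r are shown because these genes encode the cytokines and the IL-23 receptor subunit that define type 17 cells. Each line gives the 250 bases before the RefSeq start of the gene on GRCm38.p6, in the direction of the gene: Il17a from chr1:20730655-20730904 (plus strand), Il17f from chr1:20784271-20784520 (minus strand) and Il23r from chr6:67491856-67492105 (minus strand). Capitals mark AGGTCA, the core letters bound by many nuclear receptors, or the same letters on the other strand, TGACCT.
Il17a: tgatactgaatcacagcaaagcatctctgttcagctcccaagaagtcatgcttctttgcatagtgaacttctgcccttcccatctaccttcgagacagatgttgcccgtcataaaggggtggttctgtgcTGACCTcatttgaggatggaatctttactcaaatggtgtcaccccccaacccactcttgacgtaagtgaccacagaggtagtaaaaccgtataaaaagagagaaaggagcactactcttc
Il17f: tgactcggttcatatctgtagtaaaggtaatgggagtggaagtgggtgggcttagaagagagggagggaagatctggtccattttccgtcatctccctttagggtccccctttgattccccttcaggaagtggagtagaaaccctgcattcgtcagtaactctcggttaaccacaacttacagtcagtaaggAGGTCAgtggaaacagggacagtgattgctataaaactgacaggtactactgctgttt
Il23r: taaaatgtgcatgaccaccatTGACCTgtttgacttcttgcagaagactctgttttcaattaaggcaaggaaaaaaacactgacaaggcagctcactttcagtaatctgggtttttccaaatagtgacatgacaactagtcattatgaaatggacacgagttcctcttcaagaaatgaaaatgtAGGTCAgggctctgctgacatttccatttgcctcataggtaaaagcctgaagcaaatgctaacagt
The letters occurred 1 time in the Il17a window, 1 time in the Il17f window and 2 times in the Il23r window. They occurred in 4607 of 32851 mouse promoter windows of the same length (14.02%), so a match describes the window and is not a site.

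The kept libraries held 88432906 UMIs in RT + αPD-L1, 97257340 in αPD-L1, 84600548 in RT and 88176459 in Control. Of the 505 members, 413 carried exactly 1 hashtag and were assigned to a mouse, 81 carried several (16.0%) and 11 carried none. Several hashtags were seen on 8.32% of all kept barcodes, and the members with several had a median of 11932 UMIs. The members' share with several hashtags was 23.2% where a Cd8a or Cd8b1 UMI was present and 2.31% where it was not. How many members with 1 hashtag held the RNA of more than 1 cell was not tested. Of 42968 distinct barcode sequences, 994 were kept in more than 1 library, among them the barcodes of 22 members, but no sequence was a member in 2 libraries at once. Values per mouse below use barcodes with 1 hashtag.

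The 3 genes of the rule were mostly found together. All 3 were present in 381 members (75.4%), Trdv4 in 407 (80.6%), Tcrg-V6 in 396 (78.4%) and Cd163l1 in 487 (96.4%). The median member held 9 Trdv4 UMIs, 6 Tcrg-V6 UMIs and 10 Cd163l1 UMIs, and the sum of the 3 reached 154. Just inside the limit, 28 members had a sum of 3, 24 of 4 and 20 of 5, whereas just outside it 316 barcodes had a sum of 1 and 64 a sum of 2. A further 31 barcodes met the limit but held an H2-Aa or Cd79a UMI and were left out.

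Other γ segments were seen beside Tcrg-V6. Trgv2 had a UMI in 254 members (50.3%), Tcrg-V5 in 101, Tcrg-V4 in 49 and Tcrg-V1 in 48. Of the 101 members with Tcrg-V5, 97 also had Tcrg-V6, and only 2 members had 3 or more Tcrg-V5 UMIs without any Tcrg-V6. The Tcrg-V5 with Trdv4 pair of the epidermal cells was therefore rare among the members. The γ segments lie close together and their reads were counted by alignment to the genome, so counts of single segments are uncertain.

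The markers of the label that the rule did not use were unevenly found. Among the 419 members with a Trdv4 or Tcrg-V6 UMI (83.0%), 363 had a UMI of Blk, the kinase that γδ T cells of this type share with B cells (86.6%), 212 of Il23r (50.6%) and 146 of Il17a (34.8%). The other 86 members (17.03%) passed on Cd163l1 alone and mostly lacked these markers. These 86 held Il17a in 2.33% of cells, Il23r in 5.81% and Blk in 10.5%, and Trdc, the constant segment of the δ chain, in 24.4%. They are called Cd163l1-alone members below. Pooled over mice, they made up 26 of 92 members in RT + αPD-L1 (28.3%), 29 of 145 in αPD-L1, 22 of 162 in RT (13.6%) and 9 of 106 in Control (8.49%). Most of those in RT + αPD-L1 came from mouse 3. With 1 hashtag, they were 0 of 7, 2 of 9, 19 of 32, 0 of 8 and 3 of 16 members in RT + αPD-L1 mice 1 to 5.

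The members also fell into those with and those without CD8 transcripts, although the sort was for CD8+ cells. No Cd8a or Cd8b1 UMI was found in 173 members (34.3%), with a median depth of 4634 UMIs, and at least 1 was found in 332 (65.7%), with a median of 9138.5 UMIs. Among Cd163l1-alone members, 6 of 86 had no CD8 UMI. αβ CD8 T cells, defined by a CD8 UMI, an αβ constant-chain UMI and no Trdc or rule UMI, had a median of 7071 UMIs. Dendritic cells in the same libraries (at least 3 H2-Aa UMIs and no Cd3e) held Cd8b1 at 35.7 CPM and B cells at 39.2 CPM, where CPM is the count of a gene per 1000000 UMIs of the cells summed.

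Members with a Trdv4 or Tcrg-V6 UMI and 1 hashtag are called V-segment members in what follows, and the other classes include barcodes with any number of hashtags. The type 17 genes were highest in the V-segment members without CD8 (158 cells), lower in those with CD8 (186 cells), and nearer the level of the other cells in the Cd163l1-alone members. Il17a, the cytokine itself, had 487 CPM in the V-segment members without CD8 and a UMI in 44.9% of them. It had 192 CPM and 29.0% in those with CD8, and 16.2 CPM and 2.33% in Cd163l1-alone members. No Il17a UMI was found in 145 other γδ T cells, which had at least 3 Trdc UMIs and none of the rule genes, and which allow up to 3.13 CPM. αβ CD8 T cells had 0.515 CPM and a UMI in 0.163% of 36899 cells.

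Il23r, Maf and Sox13 were likewise highest in the V-segment members without CD8, then in those with CD8, then in Cd163l1-alone members. Il23r stood at 230 CPM in V-segment members without CD8, 82.4 CPM in those with CD8, 12.8 CPM in Cd163l1-alone members, 0 in other γδ T cells and 0.625 CPM in αβ CD8 T cells. Maf, a transcription factor that promotes the type 17 fate in γδ T cells, stood at 366 CPM in V-segment members without CD8, 185 CPM in those with CD8, 13.9 CPM in Cd163l1-alone members, 11.5 CPM in other γδ T cells and 5.05 CPM in αβ CD8 T cells. Sox13, a transcription factor that type 17 γδ T cells need to develop, stood at 144 CPM in V-segment members without CD8, 76.9 CPM in those with CD8, 5.80 CPM in Cd163l1-alone members, 2.09 CPM in other γδ T cells and 0.097 CPM in αβ CD8 T cells. In each case the lowest V-segment class was several-fold above every class without Trdv4 and Tcrg-V6 UMIs.

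Ccr7, Nkg7 and Eomes had their lowest levels of these 5 classes in the V-segment members without CD8. Ccr7, which guides T cells into lymph nodes, had 17.7 CPM in V-segment members without CD8, 130 CPM in those with CD8, 152 CPM in Cd163l1-alone members, 289 CPM in other γδ T cells and 307 CPM in αβ CD8 T cells. Nkg7, a protein of cytotoxic granules, had 89.5 CPM in V-segment members without CD8, 430 CPM in those with CD8, 1233 CPM in Cd163l1-alone members, 753 CPM in other γδ T cells and 794 CPM in αβ CD8 T cells. Eomes, a transcription factor of cytotoxic and memory CD8 T cells, had no UMI in the V-segment members without CD8, 20.1 CPM in those with CD8, 75.4 CPM in Cd163l1-alone members, 52.2 CPM in other γδ T cells and 59.7 CPM in αβ CD8 T cells. V-segment members with CD8 therefore held transcripts of both sets, at a depth of 8416.5 UMIs per cell against 4657 in those without CD8. Whether 1 cell or more than 1 cell gave each such barcode was not tested.

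**Figure D1:**
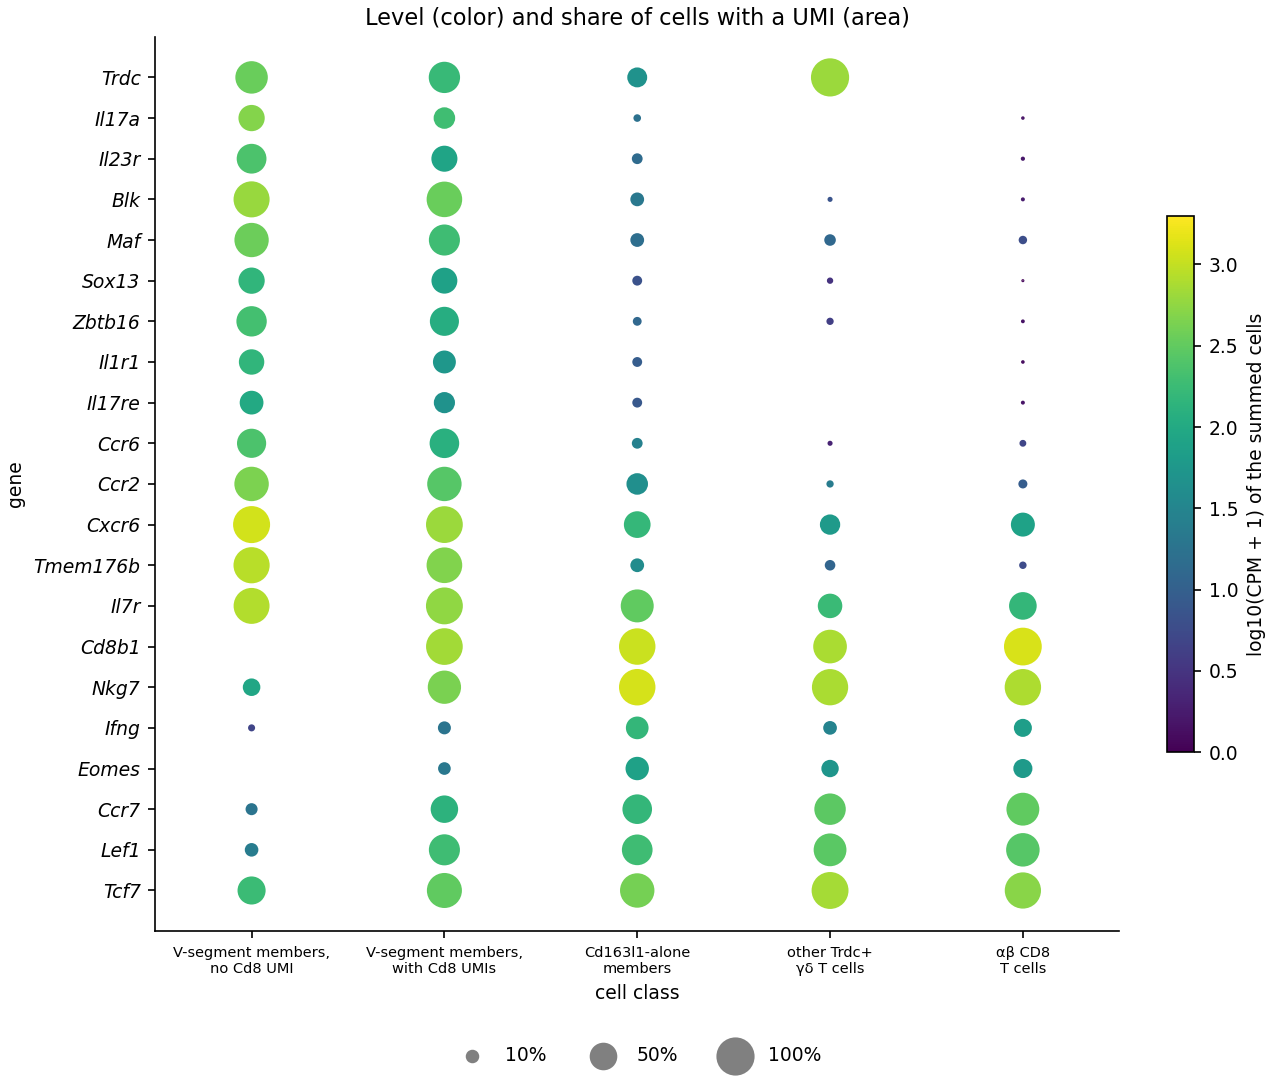
Level of 21 genes (rows) in 5 cell classes (columns), from barcodes with 1 hashtag for the V-segment members. Colour is log10(CPM + 1) of the summed counts and dot area is the percent of cells with a UMI; Il17a runs from 487 CPM in V-segment members without CD8 UMIs down to 0.515 CPM in αβ CD8 T cells, while Ccr7 runs the other way, with 17.7 CPM and 307 CPM in the same classes.

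Il17a was unevenly spread over the members. No Il17a UMI was found in 357 of the 505 members, and 148 had at least 1 (29.3%). Among these the median was 3 UMIs, 60 members had 5 or more, and 27 members with 10 or more held 453 of the 812 Il17a UMIs (55.8%). Of the 148, 143 also had Tcrg-V6 and 2 were Cd163l1-alone members. When each cell was thinned to 2000 UMIs, 18.8% of the 483 members deep enough had an Il17a UMI.

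The members held most of the Il17a of the whole data set but little of its Il17f. They held 812 of 1117 Il17a UMIs (72.7%), a further 60 lay in the 31 barcodes left out for H2-Aa or Cd79a, and none lay in other γδ T cells. In contrast, they held 32 of 200 Il17f UMIs (16.0%), in 21 members, 19 of which also had Il17a. Il22, a cytokine that acts on epithelium, had 34 UMIs in 10 members, 30.1% of its UMIs in the data set. Csf2, which encodes GM-CSF, was seen in 52 members (10.3%) and in 0.157% of αβ CD8 T cells. Members also held 76.8% of Sox13, 69.6% of Blk, 63.6% of Il1r1 and 58.5% of Il23r UMIs, from 1.15% of the barcodes.

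The members were next set against αβ CD8 T cells, the cells that the sort aimed at, within each of the 14 mice that had at least 10 members. Counts were summed per mouse and class and tested with edgeR's quasi-likelihood test with the mouse as a block, over 9446 genes, without the genes that define either class. Of these, 1195 were higher in members (12.7%) and 1371 lower (14.5%) at a Benjamini-Hochberg adjusted p under 0.05, with a median log2 fold change of −0.06. Since the rule used raw counts of 3 genes of the same cells, and genes that vary with them share that choice, the 3 other markers of the label are given as a description. Il17a had between 20.7 and 463 CPM in members (median 157) and at most 2.92 CPM in αβ CD8 T cells. Il23r had between 20.7 and 180 CPM in members (median 105), against at most 1.44 CPM in αβ CD8 T cells. Blk had between 50.2 and 496 CPM in members (median 387), against at most 1.18 CPM in αβ CD8 T cells. The classes did not overlap for any of these 3 genes, and RT + αPD-L1 mouse 3 had the lowest value of members each time.

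Transcription factors and regulators of the type 17 program were more often higher than lower. Of 22 listed, with Blk among them, 20 could be tested, 11 were higher in members, 4 lower and 5 did not pass, with a median of 0.76. Maf had 44.3 to 278 CPM in members (median 209), against 2.95 to 8.33 CPM in αβ CD8 T cells, with no overlap. Its mean was 201 ± 61.2 CPM in members and 4.76 ± 1.22 CPM in αβ CD8 T cells (SD, n = 14), a log2 fold change of 5.24 (SE 0.17, edgeR adjusted p = 1.29e-24), higher in 14 of 14 mice. Sox13 had a log2 fold change of 9.52, Zbtb16, which encodes the PLZF factor of innate-like T cells, of 8.34, and Rora, a nuclear receptor of type 17 cells, of 3.39. Id2, Runx1, Ahr, Gata3 and Ikzf3 were higher by 0.58 to 1.41 on the log2 scale. The 4 lower factors were Sox4 (−1.45), Id3 (−1.27), Bhlhe40 (−1.07) and Rel (−1.07), a subunit of NF-κB.

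Receptors for the cytokines that drive type 17 cells were mostly higher in members. Of 25 listed receptors and adaptors, 21 were tested, 12 were higher, 4 lower and 5 did not pass (median 0.35). Il1r1, the receptor for IL-1β, averaged 70.5 ± 38.1 CPM in members and 0.237 ± 0.117 CPM in αβ CD8 T cells, with a log2 fold change of 7.81 (SE 0.31, edgeR adjusted p = 6.02e-22). Il17re, a subunit of the receptor for IL-17C, was higher by 6.75, Tnfrsf25 (death receptor 3) by 4.21 and Il2ra by 2.94. Il18r1 averaged 204 ± 57.6 CPM in members and 37.6 ± 7.5 CPM in αβ CD8 T cells, and Il7r, the receptor for the survival cytokine IL-7, 558 ± 174 CPM in members and 149 ± 39.7 CPM in αβ CD8 T cells. Thus these receptors spanned from near absence in αβ CD8 T cells (Il1r1) to a shared gene at a higher level in members (Il7r).

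Genes of tissue homing were higher and the lymph node homing receptor Ccr7 was lower. Of 29 listed trafficking genes, 26 were tested, 15 were higher, 4 lower and 7 did not pass (median 0.46). Cxcr6, a chemokine receptor of tissue T cells, had 239 to 963 CPM in members (mean 697 ± 193) against 61.4 to 101 CPM in αβ CD8 T cells (mean 82.1 ± 11.7), without overlap and with a log2 fold change of 2.94. Ccr2 averaged 282 ± 104 CPM in members and 7.0 ± 5.1 CPM in αβ CD8 T cells (log2 fold change 5.29), and Ccr6 141 ± 49.8 CPM in members and 3.5 ± 1.6 CPM in αβ CD8 T cells (5.21). Both receptors are known from type 17 γδ T cells. Ltb4r1, a receptor for leukotriene B4, had a log2 fold change of 8.37. Ccr10 was higher by 3.16, Gpr183 by 1.48, and Itgae (CD103) by 1.25. In contrast, Ccr7 was lower by 1.65 on the log2 scale (112 ± 66.1 CPM in members, 311 ± 39.9 CPM in αβ CD8 T cells).

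Surface and other genes known from type 17 cells followed. Of 32 listed, 25 were tested, 15 were higher, 6 lower and 4 did not pass (median 1.34). Tmem176b, a membrane ion channel, averaged 527 ± 184 CPM in members and 4.48 ± 1.70 CPM in αβ CD8 T cells (log2 fold change 6.71), and its neighbour Tmem176a was higher by 6.52. Among the genes with the largest differences at 100 CPM or more were Abi3bp, a matrix-binding protein (8.72), Mmp25, a membrane metalloproteinase (8.60), Serpinb1a, a protease inhibitor (6.74), and Adam8, a membrane protease (6.66). Klrk1, the receptor NKG2D, was higher by 2.27. Members had Abi3bp at 56.1 to 315 CPM, against at most 0.926 CPM in αβ CD8 T cells. Of the 19 listed γδ receptor segments, the 7 that could be tested were higher, led by Tcrg-V5 (9.21) and Tcrg-C1 (8.24). Members were chosen partly by γδ segments and αβ CD8 T cells by the lack of Trdc and rule UMIs. The difference in segments therefore follows from the choice of cells and is no separate result.

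Effector genes differed in kind. Of 21 listed cytokines, 12 were tested, 4 were higher (Il17a among them), 5 lower and 3 did not pass (median −0.32). Tnf was higher by 1.05 on the log2 scale and Lta by 0.75. Xcl1, a chemokine that attracts cross-presenting dendritic cells, had 0 to 62.0 CPM in members against 140 to 260 CPM in αβ CD8 T cells (log2 fold change −2.81), and Ifng was lower by 1.01. Of 21 cytotoxic genes, 17 were tested, 3 were higher, 7 lower and 7 did not pass. Gzmm, a granzyme of innate-like lymphocytes, was higher by 1.39, and Srgn, the proteoglycan core of granules, by 0.32, whereas Gzmk, a granzyme of memory cells, was lower by 1.93 and Nkg7 by 0.89. The calls of Gzmk and Ifng were lost in a fit without the mouse block. Gzmb, the granzyme of effector cells, was higher by 0.62, and its highest level was that of RT + αPD-L1 mouse 3, described below.

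Genes of naive, stem-like and checkpoint-bearing CD8 T cells were lower in members. Of 18 stem and naive genes, 3 were higher, 12 lower and 3 did not pass (median −0.93). Tcf7, which encodes TCF-1, had 201 to 395 CPM in members against 421 to 584 CPM in αβ CD8 T cells, with no overlap (287 ± 58.8 CPM in members, 525 ± 41.5 CPM in αβ CD8 T cells, log2 fold change −0.96). Slamf6, a receptor of stem-like CD8 T cells, was lower by 1.90 and Lef1, a partner of TCF-1, by 1.03. None of the 20 tested checkpoint and exhaustion genes was higher and 16 were lower (median −1.67). Lag3 averaged 10.7 ± 11.96 CPM in members and 85.1 ± 28.6 CPM in αβ CD8 T cells (log2 fold change −2.72), and Ctla4 33.8 ± 30.6 CPM in members and 172 ± 26.6 CPM in αβ CD8 T cells (−2.15). Pdcd1, which encodes the PD-1 used in the sort, was 36.0 ± 18.5 CPM in members and 28.2 ± 12.3 CPM in αβ CD8 T cells, a log2 fold change of 0.21 that did not pass (edgeR adjusted p = 0.419). Cd44, the other sort marker, was higher by 1.21.

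Interferon-stimulated genes were lower as a group. Of 44 tested, 1 was higher, 25 were lower and 18 did not pass (median −0.59), and 9 of 18 genes of MHC class I presentation were lower with 1 higher. Ifi27l2a had 102 to 2019 CPM in members against 821 to 4174 CPM in αβ CD8 T cells, and was lower in members of 14 of 14 mice (log2 fold change −1.98). Isg15 was lower by 0.62, a call lost without the mouse block. Of 28 immediate early genes, 12 were higher and 6 lower (median 0.24), among them Jun (1.17), Fosb (0.88), Fos (0.71) and Nr4a2 (−1.31), which is induced through the antigen receptor. None of 29 cell cycle genes was higher and 11 were lower, while Mki67 did not pass (−0.10, edgeR adjusted p = 0.723). Of 20 metabolic genes, 4 were higher and 5 lower and 11 did not pass.

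Of the marker lists of other cell types, that of αβ CD8 T cells gave the highest level in members. These 5 markers, Cd8a, Cd8b1, Trac, Trbc1 and Trbc2, summed to a lowest, median and highest value of 1376, 1616 and 2666 CPM in members, against 2797, 3007 and 3399 CPM in the αβ CD8 T cells that they define. The summed level of 11 dendritic cell markers had a lowest, median and highest value of 224, 349 and 1016 CPM in members, against 149, 172 and 226 CPM in αβ CD8 T cells of the same 14 mice, and 3 of the 11 markers were at 0 in members. Most of it was Cst3, at 247 ± 67.4 CPM in members and 89.7 CPM in αβ CD8 T cells. The 9 B cell markers summed to 122, 216 and 285 CPM in members, against 174, 213 and 234 CPM in αβ CD8 T cells, and 5 of the 9 were at 0 in members. The 3 CD4 T cell markers had a median of 19.6 CPM in members and 14.5 CPM in αβ CD8 T cells, and regulatory T cell markers one of 118 CPM in members and 184 CPM in αβ CD8 T cells. Monocyte markers reached 10.97 CPM in members and melanoma markers 23.2 CPM, with medians of 0. NK cell markers had a median of 19.8 CPM in members and 202 CPM in αβ CD8 T cells. The part of these transcripts in the results above was not tested.

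**Figure D2:**
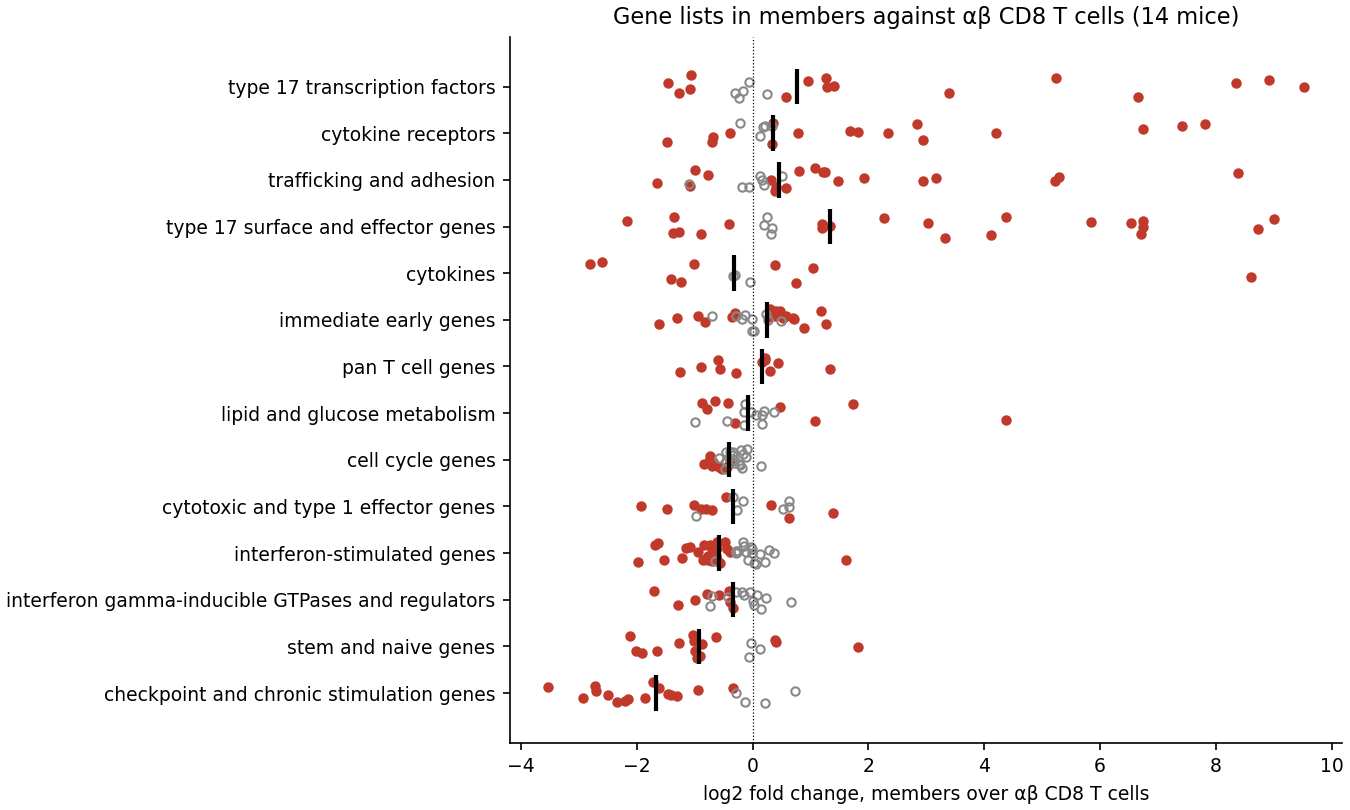
log2 fold change of members over αβ CD8 T cells (x axis) for the tested genes of 14 gene lists (rows), over 14 mice; red points passed the edgeR test, open grey points did not and black bars are medians. The checkpoint genes have a median of −1.67, while the median of all 9446 genes was −0.06.

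The members were also compared with the other γδ T cells, in the 4 mice with at least 10 cells of both kinds (RT + αPD-L1 mouse 3, RT mouse 5, Control mice 1 and 2). The αβ CD8 T cell markers summed to a lowest, median and highest value of 1901, 3019 and 3467 CPM in these other γδ T cells. In members of the same mice the values were 1518, 1651 and 2278 CPM. The part of such transcripts in the differences below was not tested. The fit against αβ CD8 T cells had 14 mice and 9446 genes, so the shares of called genes cannot be set side by side. Of 2203 genes tested, 90 were higher in members (4.09%) and 79 lower (3.59%), together 7.67%, with a median of −0.03. The count of 169 called genes ranged from 58 without RT mouse 5 to 228 without RT + αPD-L1 mouse 3, and was 100 without Control mouse 2. S100a6, a calcium-binding protein of activated and tissue T cells, had 2414 to 4739 CPM in members against 61.1 to 103 CPM in other γδ T cells. This was a log2 fold change of 5.37 (SE 0.22, edgeR adjusted p = 2.90e-10), and the classes did not overlap. Its relative S100a4 was higher by 4.42, and Ahnak, a large scaffold protein, by 3.77.

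Homing genes also differed between members and other γδ T cells. Ccr2 had 106 to 381 CPM in members of the 4 mice and was not found in the other γδ T cells of any of them. It was not absent from such cells elsewhere, since all 145 other γδ T cells of the data set held 22 Ccr2 UMIs. Cxcr6 had 239 to 863 CPM in members against 21.0 to 60.0 CPM in other γδ T cells (log2 fold change 3.83), and of 16 tested trafficking genes 7 were higher and 2 lower. Ccr7 had 64.8 to 119 CPM in members against 291 to 489 CPM in other γδ T cells (−2.06). Id3, a factor linked to interferon-γ-making γδ T cells, had 47.2 to 62.8 CPM in members against 214 to 378 CPM in other γδ T cells (−2.28). None of these genes overlapped between the classes.

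Of 15 type 17 surface and effector genes tested against other γδ T cells, 7 were higher in members, 2 lower and 6 did not pass, and of 8 type 17 transcription factors 2 were higher (Rora and Id2), 2 lower (Id3 and Ikzf2) and 4 did not pass. Tmem176b had 82.6 to 619 CPM in members against 0 to 30.5 CPM in other γδ T cells (log2 fold change 5.70), Serpinb1a was higher by 5.38, Il18r1 by 4.13, Rora by 3.41, and Il7r by 1.66 (edgeR adjusted p = 0.0493). Among 14 stem and naive genes, 7 were lower and 1 higher, with Dapl1 at −2.60 and Tcf7 at −1.29. Cd27, also lower (−1.70), is the surface marker that separates interferon-γ-making from IL-17-making γδ T cells in mice. The other γδ T cells carried other V segments, with Trdv1 (−6.11), Trdv5 (−3.81), Trdv2-2 (−3.65) and Tcrg-V4 (−2.39) lower in members. Since they were defined by the absence of the rule genes, this difference in segments follows in part from the choice of cells.

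The frequency of the members was compared between treatments to see whether radiotherapy or PD-L1 blockade moved them within the sorted cells. In RT + αPD-L1 mice 1 to 5, members made up 1.36%, 0.459%, 0.669%, 0.505% and 1.52% of cells. The shares were 0.839%, 1.05%, 1.11%, 1.24% and 1.41% in αPD-L1 mice, 1.39%, 2.10%, 0.732%, 1.38% and 1.52% in RT mice, and 1.02%, 0.614%, 1.66%, 2.57% and 0.370% in Control mice. All 4 groups overlapped, and Control held both the highest and the lowest mouse.

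The mean share was 0.902% ± 0.500 in RT + αPD-L1, 1.13% ± 0.213 in αPD-L1, 1.42% ± 0.487 in RT and 1.25% ± 0.888 in Control (SD, n = 5). None of the 5 comparisons passed a two-sided exact permutation test, whose smallest possible p is 0.00794. The p-values were 0.484 for RT + αPD-L1, 0.825 for αPD-L1 and 0.698 for RT, each against Control, by the exact permutation test. RT + αPD-L1 gave an exact permutation p of 0.103 against RT (0.516 after Benjamini-Hochberg adjustment over 5) and 0.365 against αPD-L1. The counts behind the shares ran from 2 members of 145 cells (RT mouse 4, 95% Wilson interval 0.379% to 4.89%) to 51 of 2429 (RT mouse 2, 1.60% to 2.75%), and the intervals cover counting error only.

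The share of members with an Il17a UMI was taken in mice with at least 10 members. It was 9.38% and 18.8% in RT + αPD-L1 mice 3 and 5. In αPD-L1 mice 2 to 5 it was 30.4%, 28.6%, 17.2% and 41.7%, in RT mice 1, 2, 3 and 5 25%, 45.1%, 22.2% and 42%, and in Control mice 1 to 4 27.3%, 40.0%, 35% and 17.6%. RT + αPD-L1 mouse 3 was below every other mouse, while mouse 5 lay inside the range of αPD-L1 and of Control. Means were 14.1% ± 6.63 in RT + αPD-L1 (n = 2), 29.5% ± 10.0 in αPD-L1, 33.6% ± 11.6 in RT and 30.0% ± 9.75 in Control (SD, n = 4 each). No comparison passed the exact permutation test, with p = 0.133 for RT + αPD-L1 against RT, 0.267 against αPD-L1 and 0.200 against Control, where the smallest possible p is 0.0667. RT against Control gave p = 0.629 and αPD-L1 against Control p = 0.971 by the exact permutation test. The 3 RT + αPD-L1 mice with 7 to 9 members had shares of 42.9%, 55.6% and 37.5%, and with at least 5 members per mouse the mean of RT + αPD-L1 was 32.8% ± 18.6 (n = 5).

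**Figure D3:**
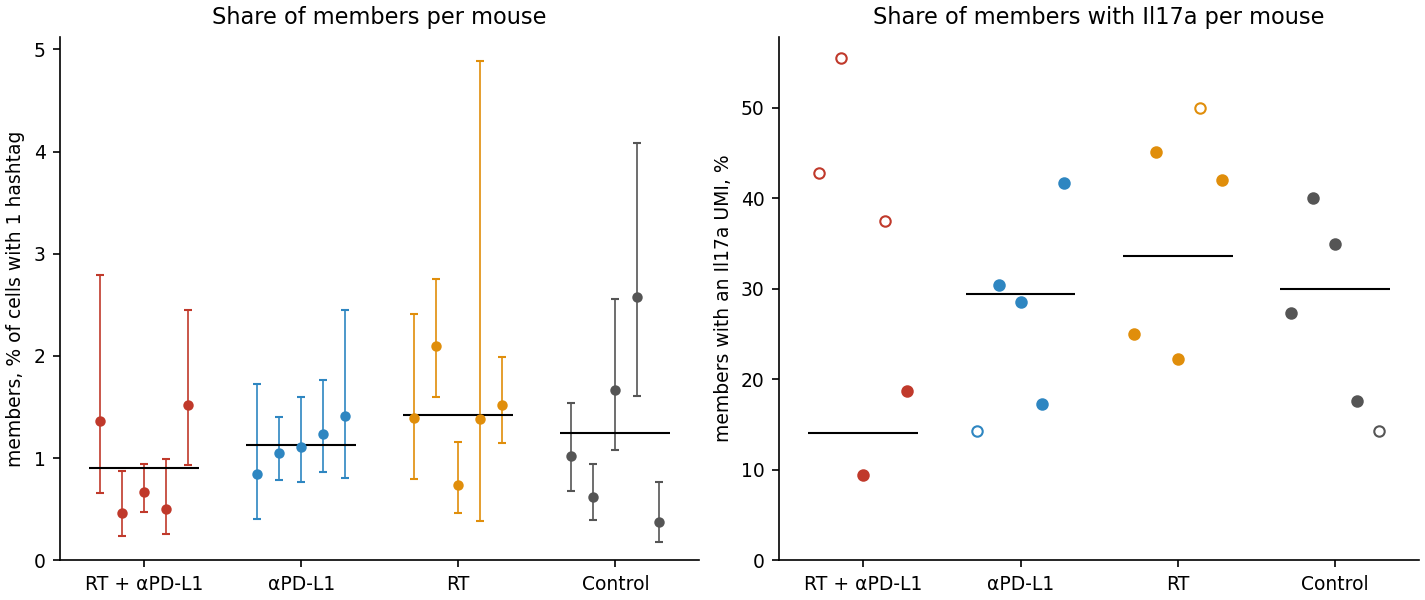
Left, members as a percent of cells with 1 hashtag in each mouse, with 95% Wilson intervals and the group mean as a black line; right, percent of members with an Il17a UMI, with open circles for mice under 10 members and a line at the mean of the others. Groups run from RT + αPD-L1 to Control; Control mice span 0.370% to 2.57% of cells, and the filled RT + αPD-L1 points lie at 9.38% and 18.8%.

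Gene expression within the members was then compared between treatments, in sums per mouse over 3280 genes, with 2 RT + αPD-L1 mice (3 and 5), 4 αPD-L1 mice, 4 RT mice and 4 Control mice. The RT + αPD-L1 comparisons rest on mouse 3, in which 19 of 32 members were Cd163l1-alone members, and on mouse 5. The edgeR test called 21 genes for RT + αPD-L1 against Control (0.64%), of which 17 were higher (0.518%) and 4 lower (0.122%). Against RT it called 18 (0.549%), 12 higher (0.366%) and 6 lower (0.183%), and against αPD-L1 10 (0.305%), 9 higher (0.274%) and 1 lower (0.0305%). Without mouse 3 each of these counts was 0, with 186, 161 and 209 genes at an unadjusted p under 0.05 in edgeR, and without mouse 5 they were 295, 351 and 154. With at least 5 members per mouse, which took in all 5 RT + αPD-L1 mice, 3 genes were called in each comparison. These comparisons share the RT + αPD-L1 mice.

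Interferon-stimulated genes were among those called in RT + αPD-L1 members. Isg15, an interferon-induced ubiquitin-like protein, had 744 and 157 CPM in members of RT + αPD-L1 mice 3 and 5. It had 54.2, 34.9, 20.6 and 34.6 CPM in αPD-L1 mice 2 to 5, 21.9, 37.5, 0 and 38.5 CPM in RT mice 1, 2, 3 and 5, and 62.8, 43.2, 34.4 and 0 CPM in Control mice 1 to 4. Both RT + αPD-L1 mice were above every mouse of the other groups. The log2 fold change was 3.78 against Control (SE 0.53, edgeR adjusted p = 0.000638), 3.98 against RT (SE 0.50, edgeR adjusted p = 0.000165) and 3.64 against αPD-L1 (SE 0.48, edgeR adjusted p = 0.000457).

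The Isg15 difference was also seen without Cd163l1-alone members and in the smaller RT + αPD-L1 mice 2 and 4. Mouse 1 lay inside the range of Control and of αPD-L1. In the fit without mouse 3 the difference was smaller and did not pass. RT + αPD-L1 mice 1, 2 and 4, with 7 to 9 members each, had 46.8, 461 and 249 CPM in members. Among V-segment members the log2 fold change of Isg15 was 3.997, 4.25 and 3.69 against Control, RT and αPD-L1. With all 5 RT + αPD-L1 mice the log2 fold change was 3.46, 3.62 and 3.27 against Control, RT and αPD-L1, with edgeR adjusted p-values of 0.00183, 0.000553 and 0.000907. Without mouse 3, which leaves mouse 5 alone, it was 2.11, 2.32 and 1.98 and did not pass (edgeR adjusted p = 0.959, 0.996 and 0.893). αβ CD8 T cells of RT + αPD-L1 mice 1 to 5 had 56.1, 592, 816, 184 and 194 CPM of Isg15, so the mice stood in nearly the same order in both kinds of cell, with mice 1 and 3 at the ends.

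Of 23 interferon-stimulated genes tested in members, 6 were higher in RT + αPD-L1 than in Control, namely Isg15, Irf7, Zbp1, Slfn5, Rtp4 and Bst2, with a list median of 1.53 against −0.02 over all genes. The counts were 5 against RT (median 1.35) and 4 against αPD-L1 (median 1.30). The filter on low counts needed a gene to pass in as many mice as the smallest group, RT + αPD-L1, held (n = 2). A gene high in these mice alone could therefore enter the test, so these counts and medians describe genes selected in that way. Irf7, which amplifies the interferon response, had 357 and 64.5 CPM in RT + αPD-L1 mice 3 and 5, against 39.3 to 72.3 CPM in αPD-L1, 46.3 to 77.6 CPM in RT and 31.0 to 97.7 CPM in Control mice. Only mouse 3 lay outside the other groups for Irf7, and among the smaller mice 117, 541 and 192 CPM were measured.

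Of 8 cytotoxic genes tested, 3 were higher against Control (Gzma, Gzmb and Ccl5) and 2 each against RT and αPD-L1 (Gzma and Gzmb). These 8 genes had passed the same filter, with the same limit. Ly6a was higher in all 3 comparisons, and Gzma, Gzmb and Ly6a had their highest levels in mouse 3. Gzmb had 1452 and 64.5 CPM in members of RT + αPD-L1 mice 3 and 5, against 10.3 to 105 CPM in αPD-L1, 0 to 27.5 CPM in RT and 6.98 to 25.8 CPM in Control mice. αβ CD8 T cells of mouse 3 had 821 CPM and those of mouse 5 29.1 CPM. Gzma had 1644 CPM in mouse 3 and 0 in mouse 5, and Ly6a, a surface protein induced by interferon, 1744 and 138 CPM. When only members with a Trdv4 or Tcrg-V6 UMI were used, the log2 fold change of Gzmb was 3.65 against Control (edgeR adjusted p = 0.0448), 2.73 against RT (edgeR adjusted p = 0.121) and 1.53 against αPD-L1 (edgeR adjusted p = 0.581), where it had been 6.13, 5.35 and 3.80.

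Of the type 17 lists, none of 17 transcription factors and none of 24 surface and effector genes tested was lower in RT + αPD-L1 members against Control, RT or αPD-L1, and Ly6a was higher. The median log2 fold change against Control was −0.56 over the transcription factors and −0.43 over the surface and effector genes, beside −0.02 over all genes tested. Il17a itself had 20.7 and 27.7 CPM in members of RT + αPD-L1 mice 3 and 5. It had 147, 323, 87.4 and 277 CPM in αPD-L1 mice 2 to 5, 121, 415, 463 and 405 CPM in RT mice 1, 2, 3 and 5, and 168, 79.1, 292 and 31.0 CPM in Control mice 1 to 4. Both RT + αPD-L1 mice were below all others, with Control mouse 4 next. The difference passed against RT (log2 fold change −3.97, SE 0.70, edgeR adjusted p = 0.00705) but not against Control (−2.57, edgeR adjusted p = 0.115) or αPD-L1 (−3.11, edgeR adjusted p = 0.0763). RT + αPD-L1 mice 1, 2 and 4 had 140, 661 and 613 CPM of Il17a in members, inside or above the range of the other groups.

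Il1r1 and Fos showed the same dependence on which mice were used. Il1r1 had 5.90 and 36.9 CPM in RT + αPD-L1 mice 3 and 5, against 54.9 to 102 CPM in RT mice (log2 fold change −2.47, edgeR adjusted p = 0.0466), and 70.2, 180 and 95.8 CPM in the smaller RT + αPD-L1 mice. Fos, an immediate early gene, had 313 and 544 CPM in RT + αPD-L1 mice 3 and 5, against 1039 to 1301 CPM in αPD-L1, 592 to 1111 CPM in RT and 852 to 1221 CPM in Control mice. Its log2 fold change was −1.36 against Control (edgeR adjusted p = 0.00876), −1.15 against RT (0.0255) and −1.46 against αPD-L1 (0.00512). The smaller mice had 1216, 962 and 2510 CPM, and with all 5 mice the log2 fold change was 0.03, 0.17 and 0.01.

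Whether members changed otherwise than αβ CD8 T cells of the same mice was tested as the interaction of class and treatment, for RT + αPD-L1 against Control. Of 11355 genes, 51 were called (0.449%), 25 with a higher change in members (0.22%) and 26 with a lower one (0.229%). Blk, with 50.2 and 442 CPM in members of RT + αPD-L1 mice 3 and 5 against 496, 475, 413 and 395 CPM in Control mice 1 to 4, was among the lower ones (interaction log2 fold change −2.44, edgeR adjusted p = 0.00639). Mouse 3 alone was low for Blk. The count was 7 without RT + αPD-L1 mouse 3, 166 without mouse 5 and 0 with at least 5 members per mouse.

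RT alone changed few genes in members. Of 3280 genes, 1 was higher (0.0305%) and 4 were lower (0.122%) against Control, together 0.152%. Ccl5, a chemokine of memory and effector T cells, had 691, 835, 1611 and 600 CPM in RT mice 1, 2, 3 and 5, against 133, 43.2, 8.60 and 7.75 CPM in Control mice 1 to 4. The groups did not overlap, and the log2 fold change was 4.18 (SE 0.71, edgeR adjusted p = 0.0127). The call was lost without Control mouse 3 (edgeR adjusted p = 0.084), RT mouse 2 (0.0687) or RT mouse 3 (0.0509), and leaving out single mice moved the number of calls between 0 and 11. Among V-segment members the log2 fold change was 3.79 (edgeR adjusted p = 0.39). Among members without CD8 UMIs it was −0.17, in a fit with only 1 Control mouse and 2 RT mice. Ccl5 in αβ CD8 T cells of the same mice averaged 408 ± 79.4 CPM in RT and 382 ± 96.3 CPM in Control.

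The 4 genes lower after RT encode histones, which are transcribed in dividing cells. Hist1h1b, a linker histone, had 21.9, 21.4, 18.5 and 11.01 CPM in RT mice, against 251, 130, 301 and 77.5 CPM in Control mice, without overlap (log2 fold change −3.39, edgeR adjusted p = 0.0367). Hist1h1d (−3.28) and Hist1h4d (−1.79) also did not overlap, while Hist1h2af did (−4.01). Mki67, a marker of dividing cells, had a mean of 54.2 ± 41.0 CPM in members of RT mice and 199 ± 68.7 CPM in those of Control mice, and Top2a 45.6 ± 50.3 CPM in RT mice and 164 ± 45.6 CPM in Control mice, but neither passed the test. No gene was called lower without Control mouse 1, Control mouse 3, RT mouse 2 or RT mouse 5, where 111, 134, 123 and 147 genes had an unadjusted p under 0.05 in edgeR in either direction. None was called lower with hashtags called by HTODemux, a rule minimum of 5, at least 5 members per mouse or V-segment members alone, where 104, 132, 98 and 126 genes had one.

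αPD-L1 alone gave no called gene against Control (0.0%), with 165 genes at an unadjusted p under 0.05 in edgeR and 0 calls by DESeq2. The genes with the lowest p were Mcm6 (log2 fold change 1.48, edgeR adjusted p = 0.616), Ccl5 (2.87) and Ptges3 (0.89) among those with higher values, and Igfbp4 (−1.73) and Hist1h1c (−1.43) among those with lower values, none of which passed.

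**Figure D4:**
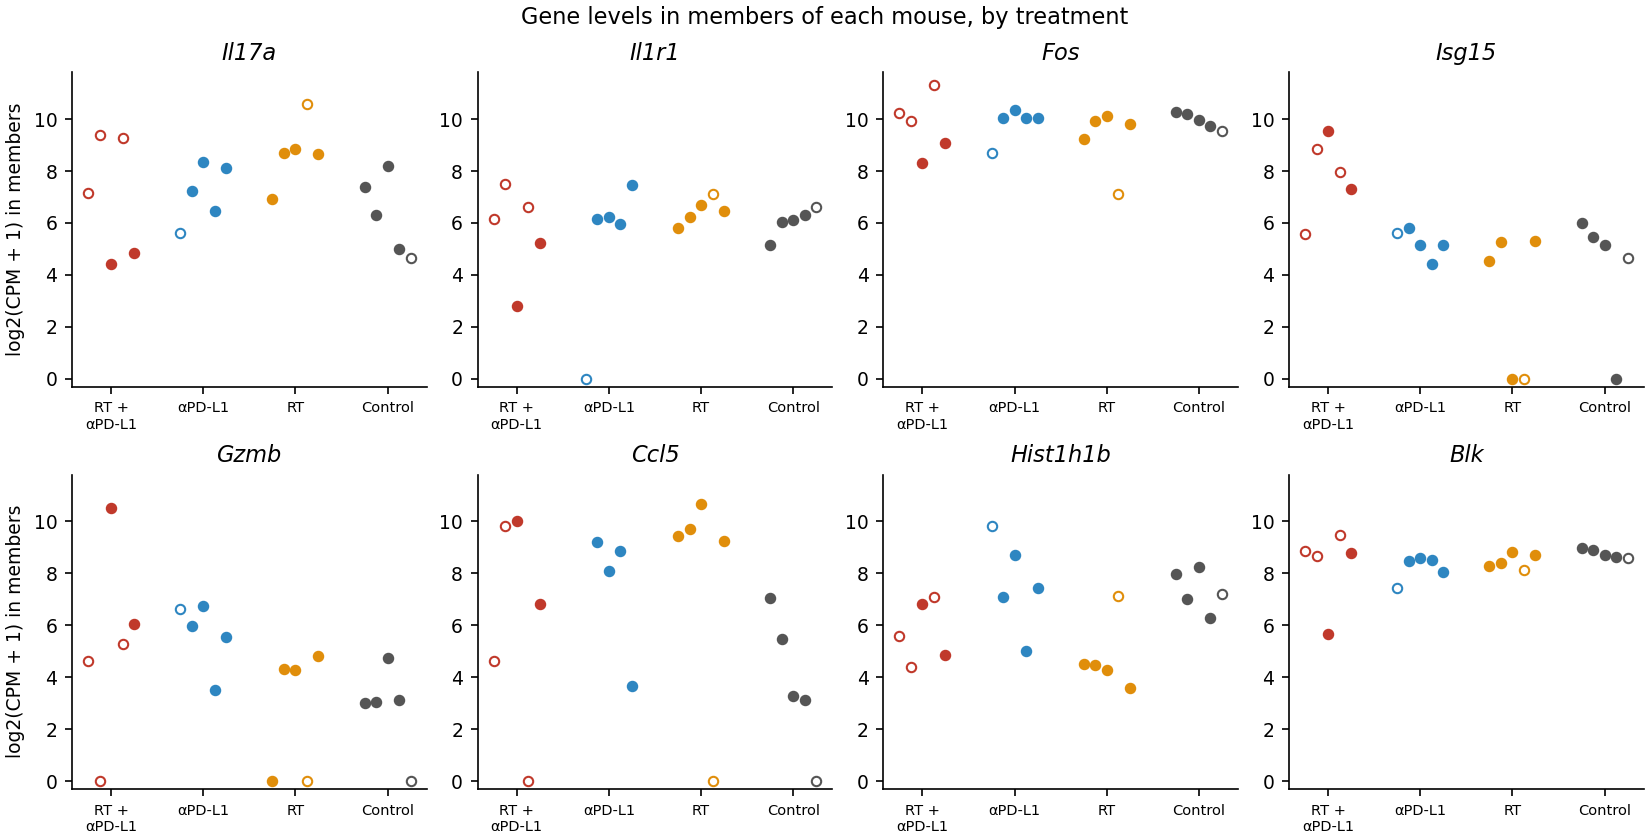
Level in members of each mouse, as log2(CPM + 1) on the y axis, for 8 genes; groups run from RT + αPD-L1 to Control, and open circles are mice with under 10 members, which the fits left out. The filled RT + αPD-L1 points for Isg15 (744 and 157 CPM) lie above the filled points of the other groups, while those for Il17a (20.7 and 27.7 CPM) lie below them and the open points do not.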

How the data were processed

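Raw UMI counts of genes and hashtags per barcode were deposited, which the authors had made with Cell Ranger and the mm10 reference; the matrix headers give version 6.1.2. Each of the 4 libraries held 32285 genes and 5 hashtags. Filters of 500 to 5000 genes, no more than 40000 UMIs and less than 10% of UMIs from mitochondrial genes kept 43971 of 47820 barcodes. A hashtag was called positive above the least filled bin (width 0.1) that separated the 2 modes of its log10 counts in that library. Barcodes with exactly 1 positive hashtag were kept for mouse values; doublets were handled only in this way. The members, gene lists and tests were chosen with earlier results of these data known.

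Counts were summed per mouse and class in mice with at least 10 cells of each class. They were tested with edgeR 4.0.16 (TMM, filterByExpr, quasi-likelihood F test, two-sided, limma 3.58.1, R 4.3.3), called at a Benjamini-Hochberg adjusted p under 0.05, after the fits had been tested on simulated data. The standard error was the log2 fold change over the square root of F. Comparisons of classes had the mouse as a block, since both sums came from 1 mouse. Treatment was tested in 1 fit of 4 groups, without a block, because hashtag numbers do not pair mice of different libraries. Shares used exact permutation tests over mice, and scipy 1.17.1 gave the Wilson intervals. CPM and shares are of raw counts, levels given to 0 UMIs allow 3 counts, and intervals and floors cover counting error only. A mouse is 1 animal, so p-values measure the spread between animals within single libraries.

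In comparisons of classes the text names listed genes by list and up to 12 called genes per direction with the largest change, at least 100 CPM and the same direction in at least 90% of mice. Between treatments it names called genes of the lowest p, up to 10 per direction, and genes of the marker lists. Alternatives were a rule minimum of 2 or 5 UMIs, HTODemux (Seurat 5.3.0, positive quantile 0.99, margin 2), at least 5 or 20 members per mouse, DESeq2 1.42.0, no filter on low counts, no replicate block, thinning to 2000 UMIs and leaving out each mouse. The alternatives with members lacking CD8 UMIs or holding a Trdv4 or Tcrg-V6 UMI were chosen after seeing the data. The 26 gene lists were counted without a set test. A few genes named by these rules are not reported here. Python 3.11.15, numpy 2.4.6, pandas 2.3.3 and matplotlib 3.10.9 were used.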

Additional observations from a re-analysis of the deposited data

Results flagged for a closer look

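Of 34 groups of values in members tested for a sample far from the others, 4 held one, where chance alone gives about 1 in 20 groups. These were Il17a in RT mouse 1 (121 CPM, the lowest of its group), Gzmb in Control mouse 3 (25.8 CPM, the highest), Fos in αPD-L1 mouse 3 (1301 CPM, the highest) and Il1r1 in αPD-L1 mouse 5 (173 CPM, the highest).

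The change of RT + αPD-L1 against Control differed between members and αβ CD8 T cells for 51 of 11355 genes (0.449%), 25 with a higher and 26 with a lower change in members, by the edgeR interaction test. The count was 7 without RT + αPD-L1 mouse 3, 166 without mouse 5, 0 with at least 5 members per mouse and 2 by DESeq2, and it was 77, 83 and 83 without αPD-L1 mouse 2, 3 or 4. In the gene lists, 3 of 21 type 17 transcription factors tested, 6 of 29 type 17 surface and effector genes, 2 of 23 cytokine receptors, 2 of 27 trafficking genes and 2 of 11 γδ segments had a lower change in members, none had a higher one, and the rest did not pass. Among the genes with a lower change were Ccr2 (interaction log2 fold change −2.92, edgeR adjusted p = 6.30e-08), Serpinb1a (−3.48, 2.83e-08), Tmem176b (−2.52, 2.83e-08), Tmem176a (−2.23, 6.45e-05), Rora (−1.86, 0.000757), Blk (−2.44, 0.00639), Tcrg-C1 (−3.09, 0.00639), Ltb4r1 (−3.65, 0.00352), Adam8 (−2.84, 0.00826), Il7r (−1.10, 0.00994), Abi3bp (−2.76, 0.0254), Maf (−1.58, 0.0347), Trgv2 (−1.58, 0.0371) and Il23r (−2.88, 0.0448). Igfbp4 (−2.53, 0.000434), Hist1h2af (−2.63, 0.00352), S100a4 (−0.90, 0.0333) and Fos (−0.87, 0.0448) also had a lower change by the edgeR test. In αβ CD8 T cells, Ltb4r1, Abi3bp, Blk, Il23r and Tcrg-C1 reached at most 0.889, 0.926, 1.18, 1.44 and 1.62 CPM. The change of these 5 genes in that class therefore rests on levels near 0. T cell receptor β segments, Trbv12-2 (3.27, 3.24e-07) and Trbv12-1 (3.48, 6.45e-05), had a higher change in members, as did Mcm6 (1.96, 0.00024), Ccl5 (2.27, 0.000434), Ifng (2.82, 0.000964) and Gzmk (10.01, 0.0448). In RT + αPD-L1 mouse 3, 19 of 32 members had passed on Cd163l1 alone, against 3 of 16 in mouse 5 and 1 or 2 of 17 to 22 in the Control mice of the fit.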

How the results depend on the processing

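The 5 comparisons of the members' share gave no exact permutation p under 0.05 in the alternatives run. The difference RT minus Control was −0.0375 percentage points with HTODemux, and αPD-L1 minus Control 0.073 with members lacking CD8 UMIs. Without single mice, the differences ranged from −0.0441 to 0.506 (RT minus Control), −0.338 to 0.212 (αPD-L1 minus Control), −0.565 to −0.0146 (RT + αPD-L1 minus Control), −0.694 to −0.352 (minus RT) and −0.380 to −0.116 (minus αPD-L1).

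The share with Il17a differed by −5.80 percentage points (RT minus Control) in members without CD8 UMIs, where only 1 Control mouse and 2 RT mice had at least 10 such members. αPD-L1 minus Control was 5.53 after thinning, 1.49 with HTODemux and 1.67 with V-segment members. With at least 5 members per mouse, RT + αPD-L1 was 5.97 above Control and 6.37 above αPD-L1. Without single mice the ranges were −0.511 to 7.39, −4.61 to 3.58, −20.6 to −11.2, −24.2 to −14.8 and −20.1 to −10.7, in the order of comparisons above.

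Counts of genes called between treatments depended on the setting, and the cause was not tested. RT against Control gave 1 gene at a rule minimum of 2, with HTODemux and in members without CD8 UMIs, 0 at a minimum of 5, in V-segment members and at 5 members per mouse, and 46 with no filter. αPD-L1 against Control gave 1 gene in members without CD8 UMIs and at 20 members per mouse, and 25 with no filter. RT + αPD-L1 against Control, RT and αPD-L1 gave 11, 7 and 1 genes at a rule minimum of 2, 13, 6 and 2 with DESeq2, 197, 188 and 112 with no filter, 3, 3 and 3 at 5 members per mouse and 329, 314 and 170 at 20, where 1 RT + αPD-L1 mouse was left and was assumed to vary like the others, as it was when either mouse was left out. Against RT, 8 were called with HTODemux and 7 in V-segment members, and against αPD-L1 4 in V-segment members. Members without CD8 UMIs left no RT + αPD-L1 mouse and only 1 Control mouse. Without single mice the counts ranged from 0 to 11, 0 to 0, 0 to 295, 0 to 351 and 0 to 154.

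Against other γδ T cells, 306 genes were called in members without CD8 UMIs, 285 in V-segment members, 80 with DESeq2, 400 with no filter, 326 at 5 members per mouse, 130 with no replicate block and 58 to 228 without single mice. Against αβ CD8 T cells the count with no replicate block was 2831, and 2211 to 2699 without single mice. The interaction gave 9 genes at a rule minimum of 2, 20 with HTODemux, 16 in V-segment members, 2 with DESeq2, 0 at 5 and 174 at 20 members per mouse, and 7 to 166 without single mice; it could not be fitted for members without CD8 UMIs.

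Signs turned for few genes. Trgv2 against other γδ T cells was 0.273 in members without CD8 UMIs and −0.734 to 0.087 without single mice. Leaving out single mice gave ranges of −1.943 to 10.556 for Gzma against Control, −3.142 to 8.177 against RT and −6.339 to 4.877 against αPD-L1, of −0.082 to 3.545 for Plac8 against Control and of −0.107 to 3.618 for Ly6a against αPD-L1, the lowest each time (the highest for Trgv2) without RT + αPD-L1 mouse 3. At 5 members per mouse, Fos was 0.029, 0.168 and 0.010 against Control, RT and αPD-L1, and Il17a 0.75 against Control and 0.20 against αPD-L1; at a rule minimum of 2, Il17a was 0.38 against Control. In members without CD8 UMIs, Ccl5 was −0.17 (RT against Control) and Mcm6 −0.056 (αPD-L1 against Control), both against a single Control mouse.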
